A study of Mus musculus with 6 samples.

Results

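Of 53735 features in the deposited count table, 10 genes of serine synthesis and one-carbon folate metabolism were followed: Phgdh, Psat1, Psph, Shmt1, Shmt2, Mthfd1, Mthfd1l, Mthfd2, Mthfd2l and Aldh1l2. They were found by an exact match of the gene symbol. All 10 had enough counts to enter the test, which covered 13092 genes. The study examined what uptake of dying cells does to stromal cells that can form bone. Wild-type mouse bone marrow stromal cells, sorted as lineage-, CD45-, CD31- and CD51+ cells, were expanded at 2% oxygen in ascorbic acid-free medium and used at passage 2 or 3. Control cultures (3 libraries) received no thymocytes. Fed cultures (3 libraries) received 5000000 dye-labelled apoptotic mouse thymocytes per well for 24 h at 5% oxygen, and label-positive cells were sorted from them. Thus the fed group holds the cells that took up cargo, whereas the control group was sorted without that selection. The labels do not give the oxygen level at which controls spent those 24 h, so oxygen and feeding cannot be told apart. They give neither the age of the animals nor the origin of the replicates, which may be 1 culture or several. The p-values therefore reflect the spread among 3 libraries a group, and that spread may be technical.

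Serine is made in the cytosol from the glycolytic intermediate 3-phosphoglycerate by PHGDH, PSAT1 and PSPH, acting in that order. Serine hydroxymethyltransferases (SHMT1 in the cytosol, SHMT2 in mitochondria) split it into glycine and a one-carbon unit carried on tetrahydrofolate. In mitochondria MTHFD2 or MTHFD2L and then MTHFD1L turn that unit into formate, which leaves for the cytosol. There the trifunctional enzyme MTHFD1 loads it back on folate for purine and thymidylate synthesis. ALDH1L2 instead oxidises mitochondrial formyl-tetrahydrofolate to carbon dioxide and yields NADPH. Several of these genes are known targets of the stress-response factor ATF4.

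The 10 genes did not move as a block in fed cells. The cytosolic folate genes rose, with Shmt1 at 1.86-fold and Mthfd1 at 1.26-fold of control. Mitochondrial Aldh1l2 fell to 0.498-fold. Mthfd2 rose slightly, to 1.12-fold, and the other 6 genes, including all 3 serine synthesis genes, did not pass the test. Thus 3 of 10 were called higher at a Benjamini-Hochberg adjusted p under 0.05 in edgeR's quasi-likelihood test, against 20.5% of all genes tested, and 1 of 10 lower, against 19.0%. In either direction 4 of 10 were called, against 39.5% of all genes, so the share called was near the background. Their median log2 fold change was 0.07, against -0.01 over all genes tested. The same 4 genes were those whose groups did not overlap, where 49.1% of all genes showed no overlap. Fed libraries were all above control for 3 of 10 (25.1% of all genes) and all below for 1 of 10 (24.0%).

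Library totals lay between 19069074 and 22410047 counts, and the members together took 0.0862% to 0.0999% of them in control and 0.0919% to 0.0991% in fed libraries. All 12 stromal markers, among them Pdgfra, Pdgfrb and Itgav (CD51), had a mean above 1 CPM (the count scaled to a common library total), although Lepr, a marker of marrow stroma in vivo, was low at 4.17 CPM in control and 3.83 in fed cells. Of these 12, 7 fell and 1 rose. For this list and the marker lists below, 19.0% of all genes tested were called lower and 20.5% higher. Of 15 thymocyte markers, 12 had at most 10 counts in every library and 5 (Cd3g, Rag2, Ptcra, Cd2 and Cd5) were at 0 in all. The summed thymocyte list had 2.78 to 3.92 CPM in control and 2.39 to 3.42 CPM in fed libraries, below the level of any member, and most of it came from Cd1d1 (2.70 CPM in control and 1.83 in fed cells) and Lck (0.560 and 0.353). Of the remaining markers with any counts, more were higher in fed libraries than lower, all at few counts. Rag1, with 28 counts over all libraries, had a mean of 0.0490 CPM in control and 0.384 in fed cells. Dntt, Cd8a and Cd8b1 were at 0 in every control library and had 1 to 5 counts in each fed library. Cd4 and Cd3e had counts in fed replicate 1 only. Themis, with 4 counts over all libraries, went down, from a mean of 0.0487 to 0.0147 CPM, and Cd3d had its only count in control replicate 2. None of these genes had enough counts to be tested. The summed list of 12 macrophage markers was higher in fed libraries, at 20.3 to 22.02 CPM against 14.1 to 15.3. Of the 4 tested, 2 were called higher, Cd14 and Lyz2 (3.32 CPM in control and 7.47 in fed cells). Csf1r (5.78 and 5.40 CPM) and Cd68 were not called. Fcgr1 was at 0, and Adgre1 had a mean of 0 CPM in control and 0.173 in fed cells. C1qa, C1qb and C1qc were at 0 in every control library and had means of 0.280, 0.185 and 0.389 CPM in fed cells. Of 8 endothelial markers, 3 were tested and 1, Vwf, was lower, with Cdh5 and Emcn at 0 throughout (summed list 10.7 to 11.3 CPM in control and 10.0 to 11.3 in fed libraries). All 12 S phase genes rose, from a summed 1276 to 1404 CPM in control to 2082 to 2243 CPM in fed libraries. The part of thymocyte, macrophage or S phase transcripts in the results on the 10 genes was not tested. In bulk RNA, a change in the share of cells of a kind and a change of RNA per cell cannot be told apart.

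Promoter stretches are shown for both SHMT genes and for Mthfd1 and Mthfd1l, since in each pair the cytosolic gene rose and the mitochondrial gene did not pass. Each is the 120 bases before the RefSeq start site on GRCm38.p6, read 5′ to 3′ on the gene's strand, with CCAAT boxes (CCAAT or its reverse ATTGG) and GC boxes (GGGCGG or its reverse CCGCCC) in capitals. Cytosolic Shmt1 (chr11:60811266-60811385, minus strand) and mitochondrial Shmt2 (chr10:127522445-127522564, minus strand) come first, followed by cytosolic Mthfd1 (chr12:76255112-76255231, plus strand) and mitochondrial Mthfd1l (chr10:3972955-3973074, plus strand).
Shmt1: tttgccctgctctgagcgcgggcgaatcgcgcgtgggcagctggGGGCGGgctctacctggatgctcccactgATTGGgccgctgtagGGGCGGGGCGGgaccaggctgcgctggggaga
Shmt2: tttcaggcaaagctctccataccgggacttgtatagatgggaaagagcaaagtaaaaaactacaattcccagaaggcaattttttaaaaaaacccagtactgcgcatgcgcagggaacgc
Mthfd1: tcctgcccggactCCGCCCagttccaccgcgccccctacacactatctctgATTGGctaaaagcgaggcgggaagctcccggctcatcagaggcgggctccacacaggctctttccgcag
Mthfd1l: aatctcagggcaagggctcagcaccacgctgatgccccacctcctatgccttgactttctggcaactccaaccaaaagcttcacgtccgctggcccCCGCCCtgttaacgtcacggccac
In these stretches Shmt1 and Mthfd1 each carried a CCAAT box, beginning 47 and 69 bases before the start site. GC boxes began 76, 32 and 27 bases before the start site in Shmt1, 107 in Mthfd1 and 24 in Mthfd1l. Shmt2 held neither motif, and Mthfd1l held no CCAAT box. All 120 bases of the Mthfd1 stretch lie in annotated exon sequence, counted over all genes on either strand. The opposite-strand lncRNA Gm47525 shares 37 bases with the exons of Mthfd1. The Shmt1 stretch lies inside the Shmt1 gene in the GENCODE annotation (60788104 to 60811718), so RefSeq and GENCODE place its start differently.

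The search itself covered both strands of the full 300-base windows, 250 bases before to 50 after the start, with overlapping matches counted. RefSeq windows were matched for 9 of the 10 genes, all but Aldh1l2, and there were 10 windows since Psat1 has a pair. A CCAAT box was in 6 of the 10 windows (Phgdh, Psat1, Psph, Shmt1, Mthfd1 and Mthfd2), against 37.4% of 32851 mouse promoter windows. A GC box was in 6 of them (Psat1, Psph, Shmt1, Mthfd1, Mthfd1l and Mthfd2l), against 35.7%. Both groups mix genes that changed with genes that did not pass, and these motifs were chosen with the sequences in view. The ATF4 and C/EBP composite element TGATGNAA (3.97% of all windows), the E-box CACGTG (7.15%) and the E2F letters TTTGGCGC (0.514%) and TTTCCCGC (1.07%) were in none of the 10 windows. That says only that these letters are not in these windows, which do not cover Aldh1l2. The windows of Shmt1, Psat1 and Mthfd2 lie inside their genes in the GENCODE annotation, so the GENCODE starts of these genes were not searched.

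None of the serine synthesis genes differed between the groups by more than the spread of the libraries. Phgdh (chromosome 3, 98313170 to 98339990, minus strand), the first enzyme of the pathway, had 68.9, 79.7 and 86.9 CPM in control replicates 1, 2 and 3 and 76.4, 76.5 and 81.6 CPM in fed replicates 1, 2 and 3. The control libraries were more spread than the fed libraries and enclosed them. Its log2 fold change was 0.00 ± 0.08 (SE), with a 95% interval from -0.18 to 0.17 (adjusted p = 0.977). Psat1 (chromosome 19, 15904678 to 15947337, minus strand), the aminotransferase of the second step, had 240.0, 277 and 292 CPM in control and 260.0, 295 and 283 CPM in fed libraries. The groups overlapped, and control replicate 1 was the lowest for both Phgdh and Psat1. The log2 fold change of Psat1 was 0.05 ± 0.08 (95% interval -0.14 to 0.24, adjusted p = 0.655). Psph (chromosome 5, 129765558 to 129787449, minus strand), the phosphatase that releases serine, had 28.3, 29.1 and 30.9 CPM in control and 29.1, 29.4 and 28.9 CPM in fed libraries. Its interval, from -0.13 to 0.11 on the log2 scale, was the narrowest of the 3 (adjusted p = 0.894). Psph shares 10.4% of its exon bases with Cct6a on the opposite strand, a chaperonin gene that rose by 0.25 on the log2 scale. Whether reads were counted by strand is not stated.

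**Figure D1:**
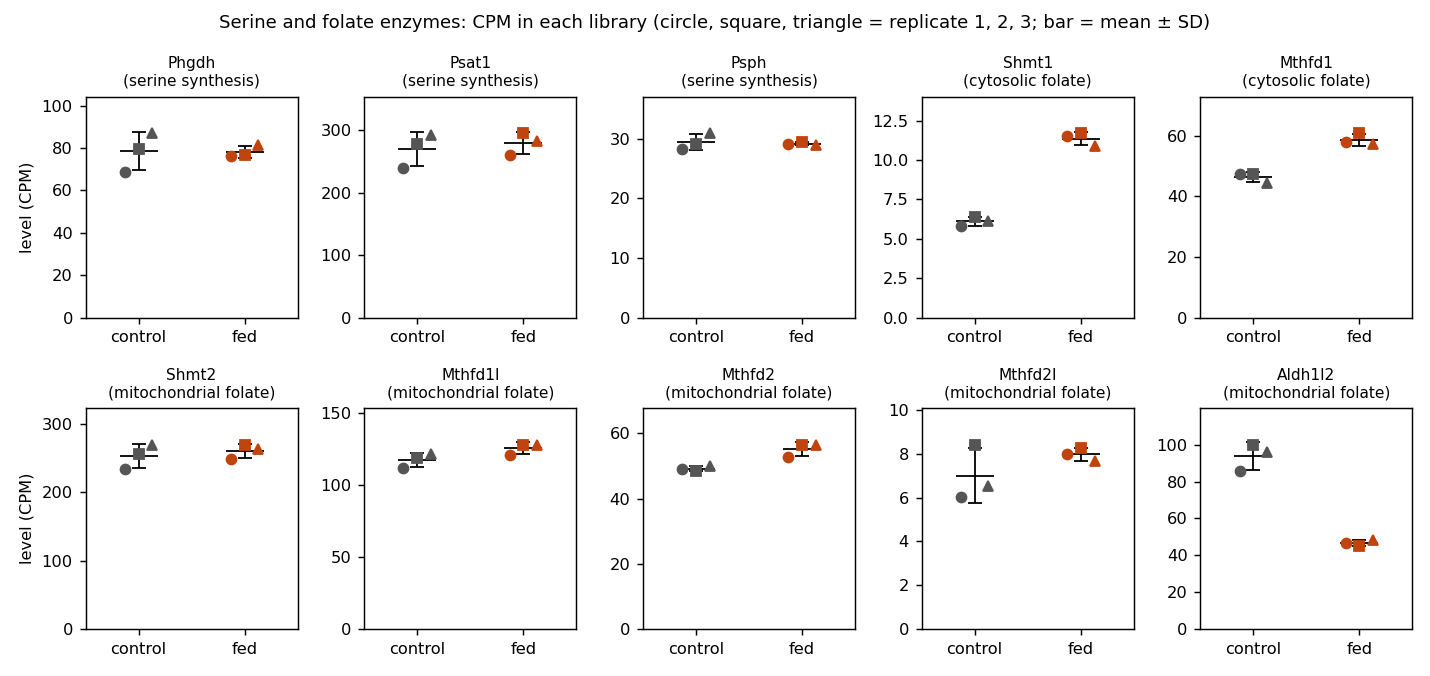
Level of each gene in CPM (vertical axes, each from 0) in the 3 control (grey) and 3 fed (orange) libraries, with the mean and SD as a bar. Shmt1, Mthfd1 and Mthfd2 lie higher and Aldh1l2 lower in every fed library than in any control library, and the other 6 genes overlap.

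Both cytosolic folate genes rose. Shmt1 (chromosome 11, 60788104 to 60811718, minus strand) had 5.84, 6.38 and 6.11 CPM in control and 11.5, 11.7 and 10.9 CPM in fed libraries. The lowest fed library stood well above the highest control library. Its log2 fold change was 0.89 ± 0.09 (95% interval 0.70 to 1.09, adjusted p = 2.29e-07), larger than that of 99.3% of the genes tested. Its counts were few, 116 to 135 in control and 232 to 254 in fed libraries, and 4.74% of its exon bases are shared with Smcr8 on the opposite strand, which went the other way, with a log2 fold change of -0.16. Mthfd1 (chromosome 12, 76255298 to 76319803, plus strand) had 47.3, 47.3 and 44.4 CPM in control and 57.8, 60.7 and 57.1 CPM in fed libraries. The groups were again apart, by more than the range within either. The log2 fold change of Mthfd1 was 0.34 ± 0.05 (95% interval 0.24 to 0.43, adjusted p = 8.69e-06). Together the pair had 52.4 ± 1.69 CPM in control and 69.9 ± 2.27 CPM in fed cells (SD, n = 3). The S phase genes given above were higher in the same fed libraries.

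The mitochondrial route from serine to formate changed little. Shmt2 (chromosome 10, 127517123 to 127522444, minus strand), its entry enzyme, had 234, 257 and 270 CPM in control and 249, 270 and 264 CPM in fed libraries. The ranges overlapped almost fully, and the log2 fold change was 0.04 ± 0.05 (95% interval -0.06 to 0.14, adjusted p = 0.507). Mthfd2 (chromosome 6, 83305691 to 83325908, minus strand), the dehydrogenase and cyclohydrolase of the middle steps, had 49.0, 48.5 and 50.04 CPM in control and 52.8, 56.5 and 56.4 CPM in fed libraries. It rose by a small amount in each fed library, with a log2 fold change of 0.17 ± 0.05 (95% interval 0.07 to 0.26, adjusted p = 0.00595). In edgeR's test against a 1.2-fold change neither Mthfd2 (adjusted p = 1.00) nor Mthfd1 (adjusted p = 0.154) passed. There 1 of the 10 genes, Shmt1, was higher, against 5.33% of all genes, and 1, Aldh1l2, was lower, against 3.45%. The isozyme Mthfd2l (chromosome 5, 90931117 to 91021368, plus strand) had 6.02, 8.41 and 6.53 CPM in control and 7.98, 8.28 and 7.66 CPM in fed libraries. Control replicate 2 was the highest of all 6 libraries, while the other control libraries were the lowest. The log2 fold change of Mthfd2l was 0.19 ± 0.12 (95% interval -0.06 to 0.43, adjusted p = 0.216), and without control replicate 2 it was 0.35 and passed (adjusted p = 0.0310). Mthfd1l (chromosome 10, 3973118 to 4167081, plus strand), which releases formate, had 112, 119 and 121 CPM in control and 121, 128 and 128 CPM in fed libraries. Fed replicate 1 lay between control replicates 2 and 3. The log2 fold change of Mthfd1l was 0.10 ± 0.04 (95% interval 0.01 to 0.18, adjusted p = 0.0724). It passed without control replicate 3 (adjusted p = 0.0376), without fed replicate 1 (0.0302) and with library totals only (0.0238).

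Aldh1l2 (chromosome 10, 83487450 to 83534140, minus strand), which takes one-carbon units out of the mitochondrial pool by oxidation, was the only one of the 10 called lower. It had 85.7, 100.0 and 96.1 CPM in control and 46.6, 45.1 and 48.5 CPM in fed libraries. Each fed library was far below the lowest control library, and the fed libraries lay close together. The log2 fold change was -1.01 ± 0.05 (95% interval -1.12 to -0.89, adjusted p = 1.65e-10), and by its p Aldh1l2 ranked 26 of the 13092 genes tested. In the annotation used here 14.1% of its exon bases are shared with D10Wsu102e on the opposite strand. That gene had no row under this name in the count table, so its level could not be set beside that of Aldh1l2. Summed over the 5 mitochondrial genes, the level was 521 ± 30.5 CPM in control and 496 ± 16.5 CPM in fed cells (SD, n = 3). Without Aldh1l2 the sum was 427 ± 24.1 and 449 ± 16.7 CPM. The sum over all 10 genes was 951 ± 66.4 CPM in control and 953 ± 35.9 CPM in fed cells, so it did not show the changes of single genes.

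**Figure D2:**
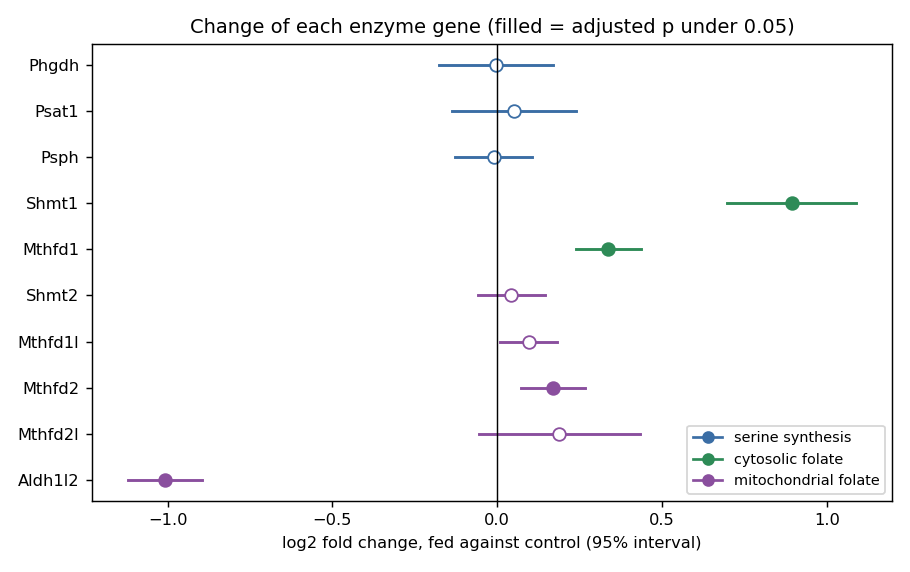
Log2 fold change of fed against control for each gene (horizontal axis) with its 95% interval as a line, coloured by role, and filled where the adjusted p was under 0.05. Aldh1l2 sits at -1.01 and Shmt1 at 0.89, and the intervals of the 3 serine synthesis genes include 0.

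Levels were also set against exon length, since raw CPM cannot be compared between genes. Per kilobase of annotated exon, Shmt2 was the highest member in control cells, at 81.5 ± 5.88 CPM per kb (SD, n = 3), and Psat1 came next at 63.4 ± 6.28. Phgdh followed at 31.6 ± 3.65 and Mthfd1l at 26.5 ± 1.11 CPM per kb, which differed by little more than the spread of Phgdh. Mthfd2 stood at 14.1 ± 0.232, Aldh1l2 at 12.5 ± 0.983, Mthfd1 at 10.4 ± 0.375 and Psph at 6.80 ± 0.306 CPM per kb. The lowest levels were those of Shmt1, at 1.57 ± 0.0692, and Mthfd2l, at 1.05 ± 0.189 CPM per kb. In fed cells Aldh1l2 moved from the sixth to the eighth place of this order, at 6.23 ± 0.223 CPM per kb, below Mthfd1 (13.2 ± 0.432) and Psph (6.74 ± 0.0571). Shmt1 kept the ninth place, at 2.92 ± 0.108 CPM per kb. In both groups the mitochondrial SHMT gene was thus far above the cytosolic gene per length. The exon lengths join all annotated transcripts of a gene, so a gene with long or rarely used exons is set too low.

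**Figure D3:**
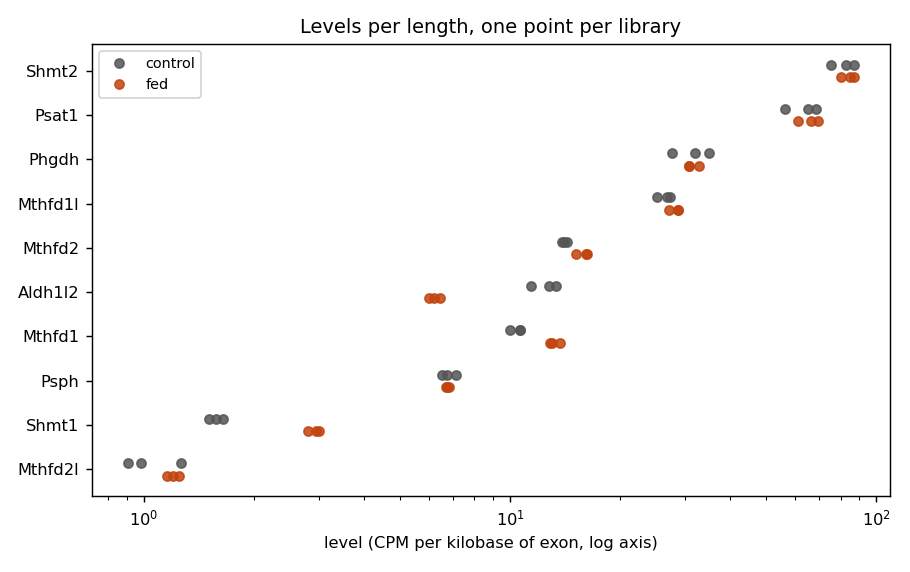
Level per kilobase of exon (horizontal log axis, CPM per kb) with 1 point for each library, grey for control and orange for fed, ordered by the control mean. The members span from about 1 to over 80 CPM per kb, and Shmt1, Mthfd1 and Aldh1l2 are those with the groups visibly apart.

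Ratios of paired enzymes within a library do not depend on the scaling between libraries. The ratio of Shmt2 to Shmt1 counts was 40.0, 40.3 and 44.1 in control and 21.7, 23.1 and 24.2 in fed libraries. It was lower in all 3 fed libraries, by 0.85 on the log2 scale (5.37 ± 0.08 against 4.52 ± 0.08, SD). The ratio of Mthfd1l to Mthfd1 was 2.37, 2.52 and 2.73 in control and 2.08, 2.10 and 2.24 in fed libraries, lower in all 3 fed libraries with a log2 difference of -0.24. The ratio of Aldh1l2 to Mthfd2 went from 1.75, 2.06 and 1.92 in control to 0.882, 0.799 and 0.859 in fed libraries, a log2 difference of -1.17. These are ratios of counts, not of levels per length, and per kilobase Aldh1l2 was below Mthfd2 in both groups. For these 3 ratios the groups did not overlap, and a two-sided exact permutation test gave p = 0.1 for each, the smallest that 3 against 3 libraries allow (0.133 adjusted over the 4 ratios). The ratio of Mthfd2 to Mthfd2l overlapped, with 8.13, 5.76 and 7.66 in control and 6.62, 6.82 and 7.36 in fed libraries (log2 difference -0.04, exact permutation p = 0.9).

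**Figure D4:**
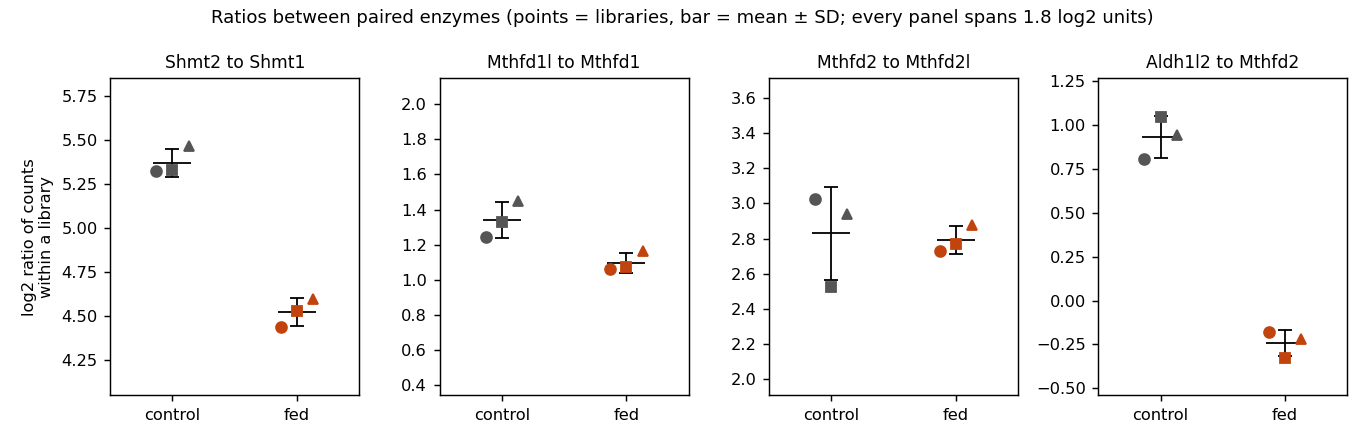
Log2 ratio of counts within each library (vertical axes, each spanning 1.8 log2 units) for 4 enzyme pairs, with the mean and SD as a bar. Shmt2 to Shmt1, Mthfd1l to Mthfd1 and Aldh1l2 to Mthfd2 are lower in every fed library, and Mthfd2 to Mthfd2l overlaps.

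Of 12 other folate enzymes and carriers tested, 4 rose, 2 fell and 6 did not pass, with a median log2 fold change of 0.07. For this list and those below, the background was 20.5% of all genes tested called higher and 19.0% called lower. Tyms, the thymidylate synthase, rose from 53.8 ± 3.71 to 76.0 ± 3.00 CPM. Aldh1l1, the cytosolic counterpart of Aldh1l2, had 44.6, 41.0 and 41.1 CPM in control and 25.03, 23.04 and 25.02 CPM in fed libraries. Its log2 fold change was -0.80 ± 0.06 (adjusted p = 1.89e-09), so both formyl-tetrahydrofolate dehydrogenase genes fell. Of 13 purine synthesis genes, which include the users of formyl-tetrahydrofolate, 10 rose and 1, Impdh1, fell (by DESeq2 none fell, adjusted p = 0.0505), with a median of 0.34. The genes that rose were 9 by DESeq2 or without control replicate 2, and 8 without control replicate 1 or fed replicate 2. They were 11 with library totals only or with the replicate number as a block. Among them Atic and Gart, which take one-carbon units from folate, rose by 0.40 and 0.45 on the log2 scale, and Adsl by 0.46.

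The other lists next to the pathway were mixed, beside a background of 20.5% of all genes called higher and 19.0% lower. Of 5 tested genes of glycine cleavage and choline-derived one-carbon units, 1 rose and 2 fell (1 fell without control replicate 2), with a median of -0.03. Gldc, the glycine decarboxylase of mitochondria, had 7.14, 7.51 and 6.16 CPM in control and 3.57, 2.48 and 3.57 CPM in fed libraries, with a log2 fold change of -1.12 ± 0.14 (adjusted p = 2.89e-06). Gcsh, the carrier protein of the same complex, rose by 0.21, and Sardh, the sarcosine dehydrogenase, had a log2 fold change of -0.17, a call lost without control replicate 2 (adjusted p = 0.0527). Of 9 methionine cycle and transsulfuration genes, 2 rose and 2 fell, with a median of 0.00. Mat2a, which makes S-adenosylmethionine, rose from 75.8 ± 1.90 to 104 ± 1.25 CPM and Mtrr, which reactivates methionine synthase, by 0.56, while Cth, a transsulfuration enzyme, fell by 0.61. The second gene that fell, Mtr, lost its call by DESeq2, without a filter on low counts, with library totals only, and on leaving out either of control replicates 1 and 2 or either of fed replicates 2 and 3 (adjusted p from 0.0611 to 0.115).

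Of 9 serine and glycine transport genes, 1 rose and 2 fell, with a median of -0.03 (20.5% of all genes were called higher and 19.0% lower). The amino acid carrier Slc38a2 fell from 439 ± 2.67 to 342 ± 5.60 CPM. The calls of Slc1a5 (log2 fold change 0.11) and Slc1a4 (-0.10), both carriers of neutral amino acids, were weak. That of Slc1a5 was lost without control replicate 1 (adjusted p = 0.214), fed replicate 2 (0.115) or fed replicate 3 (0.0773) and by DESeq2 (0.0829) or upper quartile scaling (0.0652), and 2 genes rose without fed replicate 1. With library totals only, 3 of these genes rose and 1 fell. That of Slc1a4 was lost without any 1 of the 6 libraries (adjusted p from 0.0573 to 0.134), by DESeq2 (0.139), with library totals only (0.176) or without a filter (0.135). Of 11 genes that use serine outside folate metabolism or carry it into membrane lipids, none rose and 3 fell, with a median of -0.05, although 3 rose with library totals only. Serinc3, of the serine incorporator family, fell by 0.27 and the serine racemase gene Srr by 0.36. Serinc1, of the same family as Serinc3, had a log2 fold change of -0.12, a call lost without control replicate 3 (adjusted p = 0.0616), fed replicate 1 (0.116) or fed replicate 2 (0.0621) and with library totals only (0.0975).

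**Figure D5:**
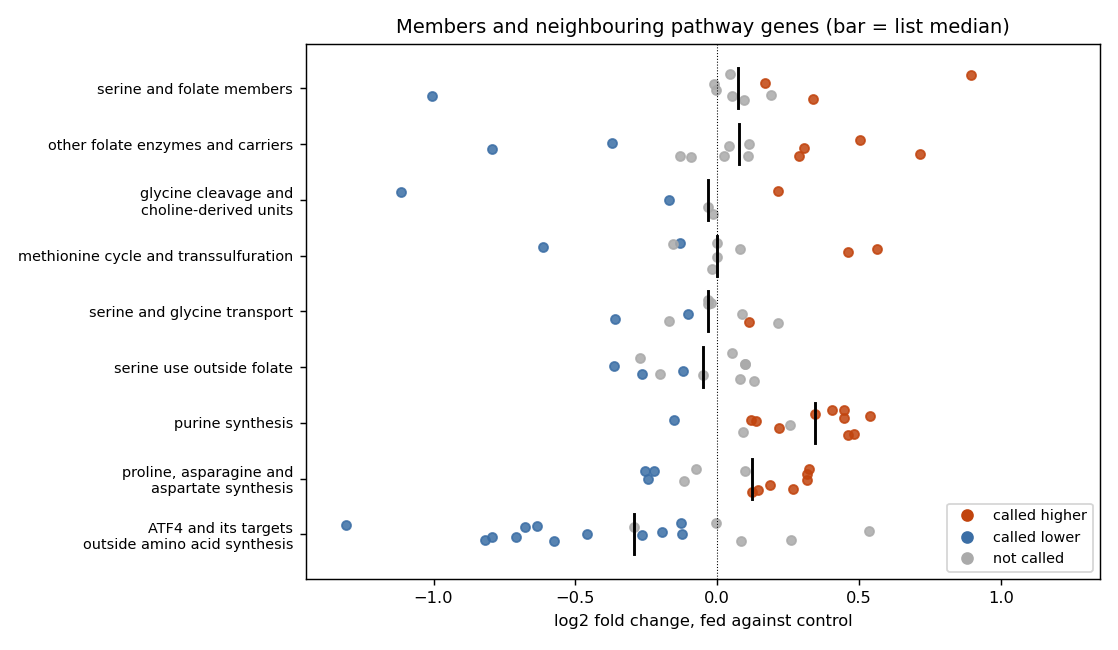
Log2 fold change of fed against control (horizontal axis) for each tested gene of the 10 members and of 8 neighbouring lists, orange where called higher, blue where called lower and grey where not called, with the list median as a bar. The members and most lists straddle 0, the purine synthesis genes lie mostly to the right (median 0.34) and the ATF4 list mostly to the left (median -0.29).

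Most of the ATF4 list fell, where 19.0% of all genes tested were called lower and 20.5% higher. Of 17 tested genes of the list of ATF4 and its targets, 12 fell and none rose (1 rose without control replicate 3 or fed replicate 1, or with library totals only) and 5 did not pass, with a median of -0.29. Those 5 were Atf3, Gdf15 and Slc7a5, with log2 fold changes of 0.54, 0.26 and 0.08, and Slc7a11 (-0.29) and Eif4ebp1 (-0.005). Atf3 had few reads, at 0.430 CPM in control and 0.646 in fed cells, and its log2 fold change had an SE of 0.42. The list was drawn up with earlier results of these data known, so its direction is not independent evidence. The lowest adjusted p belonged to Ddit4 (log2 fold change -1.31), Vldlr (-0.68) and Atf5 (-0.71). Atf4 itself had a log2 fold change of -0.12 with an adjusted p of 0.0484, a call lost without control replicate 1 (0.321), fed replicate 1 (0.0779), fed replicate 2 (0.170) or fed replicate 3 (0.104), by DESeq2 (0.0906) and by limma-voom (0.0545), without robust estimation (0.0616) and with library totals only (0.130). Among the 10 genes, Aldh1l2, also known as an ATF4 target, fell by 1.01 on the log2 scale. Phgdh, Psat1, Shmt2 and Mthfd2, known as ATF4 targets as well, had log2 fold changes of 0.00, 0.05, 0.04 and 0.17. Of 13 genes of proline, asparagine and aspartate synthesis, 7 rose and 3 fell (5 fell without control replicate 1), with a median of 0.12. Bcat1, a branched-chain aminotransferase, and Got1, the cytosolic aspartate aminotransferase, rose by 0.27 and 0.32, and the asparagine synthetase gene Asns fell by 0.25.

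The genes with the most similar pattern were found by the root mean square distance of log2 CPM, centred on each gene's mean, over the 6 libraries, leaving out genes whose mean lay under 5 CPM. Nearest to Shmt1 were Chaf1b (distance 0.0340), Cdc25b (0.0424), Fen1 (0.0475), Lingo1 (0.0489) and Pbk (0.0526). Nearest to Aldh1l2 were Ankrd55 (0.0789), Fbxo32 (0.115), Avpr1a (0.118), Dapk1 (0.128) and Pnrc1 (0.128). These are descriptions of 6 libraries, in which the difference between the groups sets most of the distance.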

How the data were processed

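The submitters' processing notes name Trimmomatic 0.36, STAR 2.6.0c, Subread 1.6.1 with featureCounts, MultiQC 1.5 and the build GRCm38. Libraries were made with a stranded mRNA kit from 200 ng of RNA, per the labels. The authors deposited raw counts in rows named by gene symbol. Some names read as dates, and 2 of these repeat, with their rows kept apart here. None is a gene named here. How reads were assigned by strand, which annotation was used and what became of reads with several matches is not given in the sources used here.

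The counts were fitted with edgeR 4.0.16 in R 4.3.3 (filterByExpr, TMM scaling, quasi-likelihood F-test with robust estimation, no replicate block) over all genes, with Benjamini-Hochberg adjustment. The script was tested on simulated data. CPM are relative to the TMM-scaled library total. Ratios were taken from raw counts with nothing added, and an alternative added 0.5 to each count. Distances had 0.5 added to each CPM. Standard errors come from the F statistic, and 95% intervals use its degrees of freedom. Any pair of libraries within a group differed beyond sampling noise, and none was merged. Coordinates, exon lengths and overlaps are from GENCODE release M21 on GRCm38, and promoters from RefSeq on GRCm38.p6. The members and lists were chosen with earlier results of these data known. Named beside the members are the 3 called genes of lowest adjusted p in each list, marker genes, and the 5 genes nearest to the called member with the smallest p in each direction. Atf4, Atf3, Gdf15, Slc7a5, Slc7a11, Eif4ebp1, Impdh1, Mtr, Smcr8 and Cct6a fall outside that rule and were chosen after their values were seen. The rule also takes 1 gene left out here. Alternatives were other scalings and filters, DESeq2 1.42.0, limma-voom (limma 3.58.1), a non-robust fit, the replicate number as a block, a stricter call at 0.01, a minimum change of 1.2-fold, and each library left out.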

Additional observations from a re-analysis of the deposited data

How the results depend on the processing

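Shmt1 and Aldh1l2 kept their direction and call under all 17 alternatives, with log2 fold changes of 0.86 to 0.93 and -1.07 to -0.96, and Mthfd1 and Mthfd2 under all but the test against a 1.2-fold change. That test left 698 genes higher (5.33% of those tested) and 452 lower (3.45%) in all, and 1 of the 10 genes higher (Shmt1) and 1 lower. Of the purine genes 6 were then higher, of the other folate genes 2 higher and 1 lower, and of the proline, asparagine and aspartate genes 0 in either direction (7 higher and 3 lower at an adjusted p under 0.05 in edgeR's test). Leaving out 1 library gave 2179 to 2623 genes higher and 1966 to 2465 lower in all, with 3 to 4 of the 10 higher and 1 lower. Genes near no change turned sign without passing. Phgdh was at 0.0281 with library totals only, 0.00632 with no filter and 0.00355 by limma-voom, and ran from -0.0907 (control replicate 1 left out) to 0.0752 (control replicate 3 left out). Leaving out these 2 libraries also gave the range of Psat1 (-0.0280 to 0.111), Psph (-0.0404 to 0.0243) and Shmt2 (-0.0132 to 0.0909), and Psph was at 0.0206 with library totals only. The log2 difference of the Mthfd2 to Mthfd2l ratio ran from -0.188 to 0.0598 when 1 library was left out, turning to 0.0598 without control replicate 1 and 0.0169 without control replicate 3, where the cause was not tested. The other 3 ratios kept their direction, at -0.89 to -0.80 for Shmt2 to Shmt1, -0.29 to -0.19 for Mthfd1l to Mthfd1 and -1.23 to -1.12 for Aldh1l2 to Mthfd2. Same-numbered libraries deviated together with correlations of 0.10, 0.02 and 0.13 for replicates 1, 2 and 3. Libraries of different numbers had correlations of -0.12 to 0.03. The labels do not say that a number marks a shared origin, so the main fit did not pair libraries by number. Control replicate 2 was closer to fed replicate 1 (0.03) than to its own number. With the replicate block 2989 genes were higher and 2859 lower, and 4 of the 10 were higher (Mthfd1l added, 0.09, adjusted p = 0.0218) and 1 lower. The block raised the genes higher to 2 for transport and 1 for serine use. For the ratios an exact sign-flip test over the 3 numbers gave p = 0.25, the smallest it can give, except for Mthfd2 to Mthfd2l (0.75). The counts of Shmt1 and Mthfd2l, the lowest of the 10, limit the precision of their values.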
